A study of Mus musculus with 12 samples.

Results

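The genes described here encode proteins that neutrophils carry in their granules and cytosol, and their transcripts are made in the marrow while these cells mature. All probes for S100a8, S100a9, Mpo, Ela2, Ngp, Camp, Ltf, Prtn3, Lcn2 and Chi3l3 were taken by gene name from the array annotation. All 10 genes were found, with 11 of the 41174 probes and 10 of the 27962 gene names on the array. Ltf had 2 probes and the others 1 each. Ela2 is now called Elane, and Chi3l3 is now called Chil3.

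Hypertrophic zones, the layer of the growth plate where cartilage cells enlarge before bone and marrow replace them, were cut from tibial sections of mice aged 14 days. There were 4 groups of 3 mice, each mouse with its own single-colour array. Schmid mice were homozygous for the collagen X mutation Col10a1 p.Asn617Lys, and Cog mice carried ColXTgcog, a misfolding thyroglobulin driven by the Col10a1 promoter. Each mutant was compared with wildtype littermates of its own background, called Schmid wildtype and Cog wildtype below, which carried neither allele. The labels do not say whether the Cog mice had 1 or 2 copies of the transgene. The tissue was cut by hand, and its RNA went through 2 rounds of linear amplification, so a piece of adjoining marrow or blood would be measured with the cartilage. In such bulk samples, fewer neutrophils and less RNA per neutrophil cannot be told apart.

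Neutrophil granules are made in sequence. Early precursors fill the primary granules with myeloperoxidase and serine proteases, later precursors fill the secondary granules with lactoferrin, cathelicidin and related proteins, and mature cells hold large amounts of S100a8 and S100a9 in the cytosol. The order follows transcription factors such as those of the C/EBP family, PU.1 and Gfi1. The hypertrophic zone is free of vessels, and at its lower edge lies the vascular front, where marrow cells and osteoclasts work.

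Log2 signals are spot intensities corrected for background and quantile normalized, and they are compared between arrays and not between probes. Whether a spot is well above background is the call of the scanner software. Between 39.6 and 61.8% of the spots on an array were well above background. The 9 hypertrophic chondrocyte markers measured, Col10a1, Ihh, Mmp13, Spp1, Akp2, Col2a1, Agc1, Sox9 and Pthr1, were well above background on all 12 arrays. The 3 Schmid arrays made up 1 slide, Schmid wildtype replicates 1 and 2 lay on another, Schmid wildtype replicate 3 lay on the slide of the 3 Cog arrays, and the Cog wildtype arrays had a slide of their own. Slide and genotype therefore cannot be told apart. Schmid wildtype replicate 3 was the lowest of its group for 8 of the 10 granule genes, and replicate 1 was the highest for 9. Calls on the granule genes that change without replicate 3 are given both ways. Values without replicate 1 are given beside them where these move the other way. For the related and marker lists, counts are given without replicate 3 only.

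The oligonucleotides through which the main results were read are shown first. Those of Prtn3 and Lcn2 belong to the genes that were called, those of Camp and S100a8 to genes with a wide spread between mice, and the pair for Ltf to the gene whose probes differed in size of change. Each is 60 bases long, is printed 5′ to 3′ as the array annotation gives it, and has at least 1 reading frame without a stop codon. Capitals are not used in these probes.
Prtn3 probe: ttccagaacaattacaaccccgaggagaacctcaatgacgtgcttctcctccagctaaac
Lcn2 probe: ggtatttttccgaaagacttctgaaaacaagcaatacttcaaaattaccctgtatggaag
Camp probe: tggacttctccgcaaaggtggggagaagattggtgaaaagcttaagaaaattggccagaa
S100a8 probe: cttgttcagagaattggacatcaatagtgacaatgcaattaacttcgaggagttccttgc
Ltf brighter probe: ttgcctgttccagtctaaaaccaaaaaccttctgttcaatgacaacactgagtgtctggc
Ltf dimmer probe: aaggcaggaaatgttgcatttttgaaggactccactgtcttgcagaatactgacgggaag

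On the mm7 build used by the array annotation, the Prtn3 probe lies at chr10:79661141-79661957 on the plus strand and the Lcn2 probe at chr2:32392828-32393072 on the minus strand. Both span more than their 60 bases of genome, so they cross an exon junction. The Camp probe lies at chr9:109544107-109544166 on the minus strand and the S100a8 probe at chr3:90800058-90800117 on the plus strand, each without a gap. The dimmer Ltf probe crosses a junction at chr9:110733462-110736512, and the brighter one lies without a gap at chr9:110738071-110738130, both on the plus strand.

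The 250 bases before the transcription start were searched for letters that match the sites of granulocyte factors. These were taken from RefSeq on GRCm38.p6 for all 10 genes, and the promoters of the 2 called genes and of the neighbouring S100a8 and S100a9 are shown. Both strands were searched. Capitals mark TTNNGNAA, a C/EBP pattern, and GAGGAA, a PU.1 pattern, each in either orientation, and no matches overlapped in these windows.
Prtn3, chr10:79879417-79879666, plus strand: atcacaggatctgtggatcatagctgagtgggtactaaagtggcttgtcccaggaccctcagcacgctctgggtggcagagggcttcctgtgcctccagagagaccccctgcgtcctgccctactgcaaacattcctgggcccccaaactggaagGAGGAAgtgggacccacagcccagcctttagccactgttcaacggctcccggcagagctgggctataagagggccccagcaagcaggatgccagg
Lcn2, chr2:32387740-32387989, minus strand: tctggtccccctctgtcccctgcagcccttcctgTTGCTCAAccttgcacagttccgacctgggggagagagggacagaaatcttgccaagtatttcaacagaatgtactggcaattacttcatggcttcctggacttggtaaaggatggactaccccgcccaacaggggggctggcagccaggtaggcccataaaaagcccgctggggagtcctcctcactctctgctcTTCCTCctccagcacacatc
S100a8, chr3:90668821-90669070, plus strand: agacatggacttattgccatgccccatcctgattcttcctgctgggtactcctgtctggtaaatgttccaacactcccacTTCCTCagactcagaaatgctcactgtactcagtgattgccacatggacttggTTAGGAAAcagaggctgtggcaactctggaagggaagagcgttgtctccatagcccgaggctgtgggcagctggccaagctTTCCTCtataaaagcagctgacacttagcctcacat
S100a9, chr3:90695722-90695971, minus strand: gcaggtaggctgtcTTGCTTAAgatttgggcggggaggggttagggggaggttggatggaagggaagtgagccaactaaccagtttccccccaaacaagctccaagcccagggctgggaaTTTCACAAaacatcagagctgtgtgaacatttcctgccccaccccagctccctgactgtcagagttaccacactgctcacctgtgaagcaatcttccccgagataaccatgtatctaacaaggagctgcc

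The C/EBP pattern was in the windows of 6 of the 10 genes, against 36.9% of all 32851 promoters. The PU.1 pattern was also in 6 of 10, against 23.3% of all promoters. Prtn3 had a single PU.1 match 95 bases before the start and no C/EBP match, Lcn2 had both, and Camp had neither. A CHOP and ATF4 pattern, TTGCATCA, was in 0 of the 10 windows and in 0.79% of all promoters. A match, or its absence, is a description of letters in this window and says nothing about binding.

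The spread of the granule genes between mice was widest in Schmid wildtype. The log2 signal of Camp, the precursor of the antimicrobial peptide cathelicidin, was 15.98, 14.75 and 8.87 on Schmid wildtype replicates 1, 2 and 3. Its SD of 3.80 was the highest of 41171 probes in that group, and the third array was not well above background. S100a9, a calcium-binding protein that pairs with S100a8, had log2 signals of 18.07, 16.62 and 11.58 on the same arrays, an 89.7-fold range and the next highest SD (3.40). The median SD of the 10 genes was 1.94 in Schmid wildtype, against 0.23 over all probes.

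In the other groups the medians were 0.81 in Schmid, 0.79 in Cog and 0.29 in Cog wildtype, against 0.15, 0.21 and 0.17 over all probes. In Cog wildtype, 84.5% of all probes had an SD at least as high as that of Ltf, and 97.9% as high as that of Ela2, which was at background there. Prtn3, which encodes the serine protease proteinase 3, was the most even granule gene in Schmid and in Schmid wildtype, with SDs of 0.23 and 0.47.

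The unevenness was shared between genes. Schmid wildtype replicate 1 had the highest signal of all 12 arrays for 8 of the 10 genes, the exceptions being Prtn3 and Lcn2, and replicate 3 was the lowest of its group for 8 of 10. Cog replicate 2 was the highest of the Cog arrays for 7 genes, and Schmid replicate 3 was the lowest Schmid array for all 10. By group means, Schmid wildtype was the highest group for 7 genes, Cog for 2 (Prtn3 and Ltf) and Schmid for 1 (Lcn2). Cog wildtype was the lowest for 6.

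**Figure D1:**
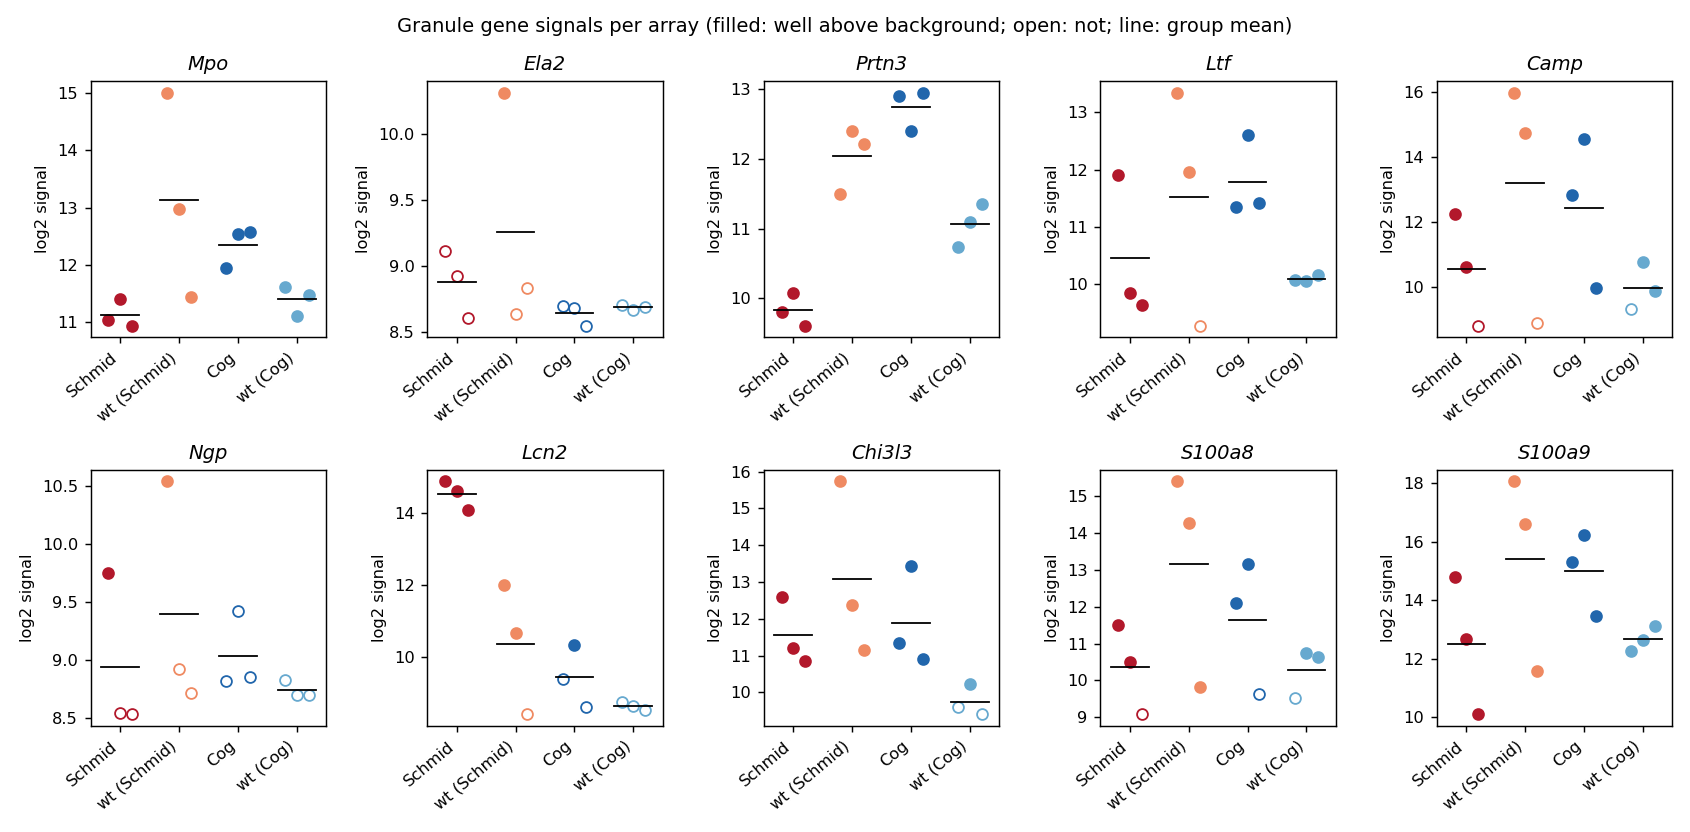
Log2 signal of each granule gene on each of the 12 arrays, by group (wt, wildtype), at the brightest probe. Filled points were well above background, open points were not, and lines are group means of 3 arrays. Most genes spread widely in Schmid wildtype, while Prtn3 does not overlap between either mutant and its wildtype and Lcn2 is high on all 3 Schmid arrays.

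Of the primary granule proteins, Prtn3 had log2 signals of 9.81, 10.07 and 9.61 on the 3 Schmid arrays and 11.50, 12.40 and 12.21 on the Schmid wildtype arrays. On the Cog arrays they were 12.90, 12.41 and 12.95, and on the Cog wildtype arrays 10.74, 11.10 and 11.35. All were well above background. Every Schmid array lay below, and every Cog array above, all arrays of its wildtype.

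Prtn3 was 4.62-fold lower in Schmid (log2 difference -2.21, SE 0.26, limma, adjusted p = 0.00045) and 3.22-fold higher in Cog (log2 difference 1.69, SE 0.26, limma, adjusted p = 0.0085). The 2 changes differed by -3.90 on the log2 scale (SE 0.36, limma, adjusted p = 0.00047). Cog wildtype was lower than Schmid wildtype by 0.98, without passing the threshold (log2 difference -0.98, limma, adjusted p = 0.11). Every Cog wildtype array lay below every Schmid wildtype array, and this wildtype difference enters the -3.90. Calls here need an adjusted p of 0.05 or less over all probes and at least a 2-fold change. The Prtn3 probe lies in array row 72, and with a trend over the rows removed from each array it was still called, with differences of -1.96 in Schmid (limma, adjusted p = 0.00084) and of 1.56 in Cog (adjusted p = 0.013). The Cog call was lost when the processed signal was scaled to its 75th percentile (log2 difference 1.83, limma, adjusted p = 0.067). Tested against a 2-fold change with limma's treat, neither Prtn3 nor Lcn2 was called in either mutant. That test called 0.61% of all probes in Schmid and 0.034% in Cog.

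Mpo, the myeloperoxidase that makes hypochlorous acid from hydrogen peroxide, had log2 signals of 11.04, 11.40 and 10.95 in Schmid and 15.01, 12.98 and 11.44 in its wildtype. In Cog they were 11.95, 12.54 and 12.58, against 11.62, 11.11 and 11.47 in wildtype. Both mutants separated from their wildtype, below it in Schmid and above it in Cog. Over all probes, 45.4% did not overlap in the Schmid comparison, and 16.4% lay wholly above wildtype in Cog.

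The Mpo differences did not pass the threshold, at -2.01 in Schmid (SE 0.67, limma, adjusted p = 0.053) and 0.96 in Cog (SE 0.67, limma, adjusted p = 0.45). When Schmid wildtype replicate 3 was left out, the Schmid difference was -2.86 and was called (limma, adjusted p = 0.0057). Without replicate 1 it was -1.08 (adjusted p = 0.066). Mpo was also called in Schmid under 5 other settings, with both scalings to the 75th percentile, the filter on dim probes, slide as a random block and the row trend removed (limma, adjusted p = 0.024 to 0.044). The slide block had a correlation of -0.12 and cannot account for slide, since slide and genotype cannot be told apart.

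Ela2, neutrophil elastase, was well above background on 1 of the 12 arrays, Schmid wildtype replicate 1, with a log2 signal of 10.32. The other 11 arrays lay between 8.55 and 9.11. In Schmid the log2 difference was -0.38 (limma, adjusted p = 0.45), and it was 0.15 without that wildtype array, so no fold is given. None is given for Cog either, where both groups were at background.

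Of the secondary granule proteins, Lcn2, a lipocalin that binds iron-carrying siderophores and is also made by cells other than neutrophils, stood apart. Its log2 signals were 14.89, 14.61 and 14.08 in Schmid and 12.0025, 10.67 and 8.41 in Schmid wildtype, the last not well above background. In Cog they were 9.40, 10.34 and 8.62 and in Cog wildtype 8.74, 8.65 and 8.53, and of these 6 arrays only Cog replicate 2 was well above background. The 3 Schmid arrays were the 3 highest of the 12.

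Lcn2 was 17.9-fold higher in Schmid than in its wildtype (log2 difference 4.17, SE 0.74, limma, adjusted p = 0.0036), with all arrays the largest difference in either direction among the 10 genes. With that background's wildtype replicate 3 left out it was 9.13-fold (log2 difference 3.19, adjusted p = 0.0042), and without replicate 1 the log2 difference was 4.99 (adjusted p = 0.00070). Over leaving out each of the 6 arrays of this comparison the call was kept. In Cog the Lcn2 difference was 0.81 (SE 0.74, limma, adjusted p = 0.57) and rested on Cog replicate 2, so no fold is given. The Schmid change minus the Cog change was 3.35 for Lcn2 and did not pass the threshold (limma, adjusted p = 0.054). It was called under 8 alternatives, among them the replicate number as a block (limma, adjusted p = 0.030), and not under 15. The adjusted p ran from 0.0088 (limma, without Schmid wildtype replicate 1) to 0.76 (limma's treat). The size of this difference is uncertain because no Cog wildtype array was well above background. The Lcn2 mean in Cog wildtype was at least 2.03-fold lower than in Schmid wildtype, with overlapping arrays (limma, adjusted p = 0.33).

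Ltf, the iron-binding lactoferrin, had log2 signals at its brighter probe of 11.91, 9.84 and 9.64 in Schmid and 13.34, 11.96 and 9.28 in its wildtype. In Cog they were 11.35, 12.60 and 11.42, all above the Cog wildtype values of 10.06, 10.05 and 10.16. Schmid and its wildtype overlapped through replicate 3 of the wildtype alone. The difference was -1.06 in Schmid (SE 0.91, limma, adjusted p = 0.41) and 1.70 in Cog (SE 0.91, limma, adjusted p = 0.32). The Schmid difference was -2.19 without wildtype replicate 3 (adjusted p = 0.058) and -0.16 without replicate 1 (adjusted p = 0.90). The dimmer probe correlated with the brighter by 0.82 over the 12 arrays, with smaller differences of -0.57 and 0.11.

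Camp had log2 signals of 12.24, 10.62 and 8.80 in Schmid, and in Cog of 12.81, 14.54 and 9.97 against 9.31, 10.75 and 9.86 in wildtype. The groups overlapped in both comparisons. The difference was -2.64 in Schmid (SE 1.74, limma, adjusted p = 0.28) and 2.47 in Cog (SE 1.74, limma, adjusted p = 0.45). Without Schmid wildtype replicate 3, which alone overlapped the Schmid arrays, Camp was 28.0-fold lower in Schmid and was called (log2 difference -4.81, SE 1.28, limma, adjusted p = 0.035). Without replicate 1 the difference was -1.25 (limma, adjusted p = 0.62).

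Chi3l3, a chitinase-like lectin also made by some macrophages, had log2 signals of 12.58, 11.21 and 10.85 in Schmid and 15.73, 12.38 and 11.15 in its wildtype. In Cog they were 11.34, 13.44 and 10.90, all above the 9.60, 10.24 and 9.41 of Cog wildtype. Neither difference passed the threshold, at -1.54 (SE 1.05, limma, adjusted p = 0.30) and 2.15 (SE 1.05, limma, adjusted p = 0.28). For Schmid it was -2.51 without wildtype replicate 3 (adjusted p = 0.12) and -0.21 without replicate 1 (adjusted p = 0.85). Ngp, a granule protein related to the cathelicidins, was well above background on Schmid replicate 1 (log2 signal 9.75) and Schmid wildtype replicate 1 (10.54) and on no other array.

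Of the cytosolic proteins, S100a8 had log2 signals of 11.51, 10.50 and 9.08 in Schmid and 15.40, 14.27 and 9.82 in its wildtype. In Cog they were 12.11, 13.15 and 9.63, against 9.53, 10.73 and 10.62. S100a9 was at 14.79, 12.68 and 10.11 in Schmid, and in Cog at 15.31, 16.24 and 13.48, all above 12.26, 12.63 and 13.11 in Cog wildtype. In Schmid, both genes overlapped with wildtype through replicate 3 of the wildtype alone.

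With all arrays the Schmid differences were -2.80 for S100a8 (SE 1.34, limma, adjusted p = 0.15) and -2.90 for S100a9 (SE 1.58, limma, adjusted p = 0.20). Without Schmid wildtype replicate 3 both were called, at 22.2-fold lower (limma, adjusted p = 0.017) and 28.2-fold lower (limma, adjusted p = 0.027). Without replicate 1 the differences were -1.68 (limma, adjusted p = 0.37) and -1.58 (limma, adjusted p = 0.48). In Cog the differences were 1.33 (SE 1.34, limma, adjusted p = 0.61) and 2.35 (SE 1.58, limma, adjusted p = 0.43).

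Counted together, 2 of the 10 genes were called in Schmid, Prtn3 lower and Lcn2 higher, where 10.5% of all probes were called (4.69% lower and 5.78% higher). The log2 difference was negative for 9 of 10, all but Lcn2, with a median of -1.78 against -0.06 over all probes. The arrays of the 2 groups did not overlap for 3 genes (Prtn3, Mpo and Lcn2), against 45.4% of probes. Without Schmid wildtype replicate 3, 6 of 10 were called (Mpo, Prtn3, Camp, S100a8 and S100a9 lower, Lcn2 higher), against 8.35% of all probes. Without replicate 1 it was 2 (Prtn3 and Lcn2), against 15.5% of all probes. The differences of Ela2 and Ngp, near background, were then positive (0.15 and 0.12), and those of Ltf and Chi3l3 were -0.16 and -0.21. The count of 9 negative differences thus rests on replicate 1.

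In Cog, 1 of the 10 genes was called, Prtn3, where 2.31% of all probes were called (1.56% higher). The difference was positive for 9 of 10, with a median of 1.51 against -0.0044 over all probes. The exception, Ela2, was at background in both groups. So was Ngp, which is counted among the 9, and Lcn2 was well above background on Cog replicate 2 alone. For 5 genes (Mpo, Prtn3, Ltf, Chi3l3 and S100a9) all Cog arrays lay above all wildtype arrays, against 16.4% of probes.

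The change differed between the mutants for 1 gene, Prtn3, against 10.3% of all probes. Without Schmid wildtype replicate 3 it differed for 7 (Mpo, Prtn3, Ltf, Camp, S100a8, S100a9 and Lcn2), against 8.97% of all probes, and without replicate 1 for 3 (Mpo, Prtn3 and Lcn2), against 15% of all probes. All 10 genes had lower means in Cog wildtype than in Schmid wildtype, with a median of -1.73 against 0.0027 over all probes. The arrays of these wildtype groups overlapped for 8 genes and did not for Prtn3 and Chi3l3. In the Schmid comparison 45.4% of all probes did not overlap. With limma, 0 were called, against 0.469% of all probes, and 4 of the 10 had an unadjusted p of 0.05 or less, against 14.1% of all probes. In the mean of the 10 genes, Schmid wildtype replicate 3 was at -1.11 from the mean of all arrays, while replicates 1 and 2 were at 2.65 and 1.22. The Cog arrays on its slide were at 0.33, 1.20 and -0.45, the Cog wildtype arrays on another slide at -1.20 to -0.88, and Schmid replicate 3 on a further slide at -1.12. The part of the slide in this was not tested.

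**Figure D2:**
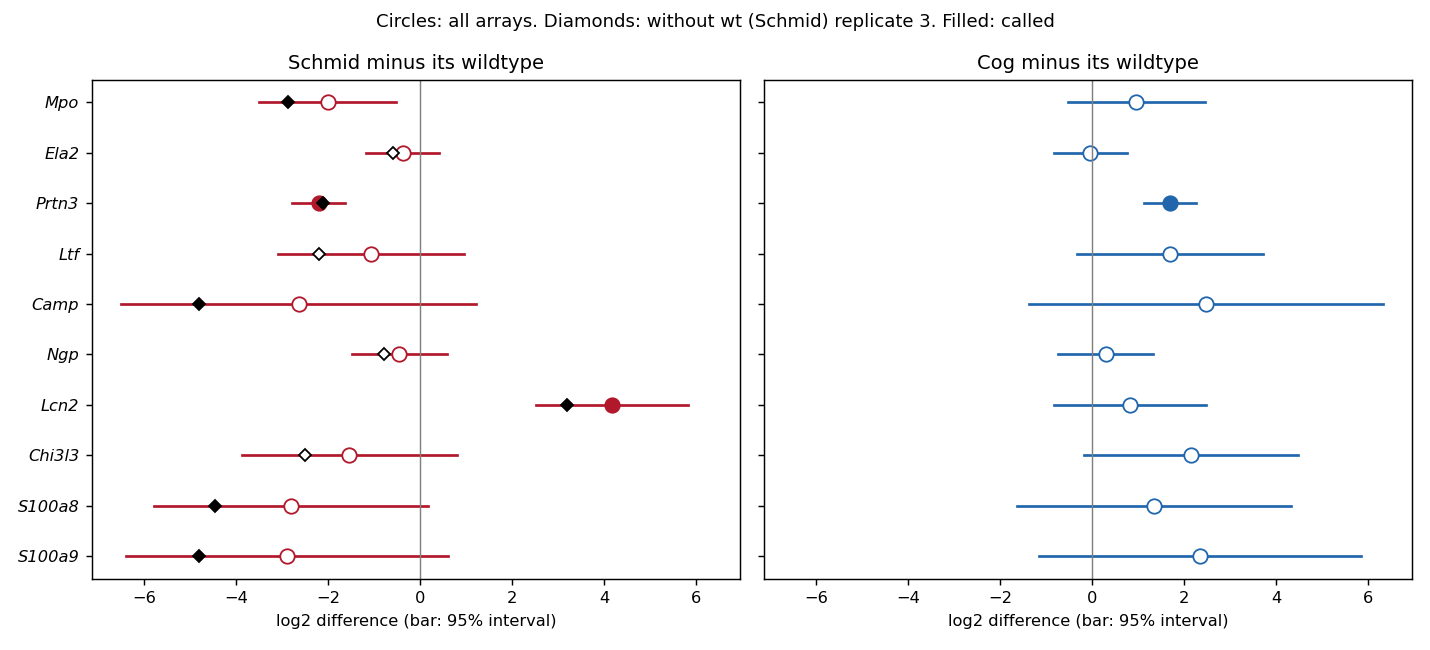
Log2 difference between each mutant and its wildtype for the 10 granule genes, with 95% intervals from limma on all 12 arrays (circles). Diamonds in the left panel give the Schmid difference without Schmid wildtype replicate 3, and filled symbols were called. In Schmid, 9 genes lie left of 0 and Lcn2 right of it, and the diamonds of Camp, S100a8 and S100a9 lie beyond -4.

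Most of the genes followed one another over the arrays. The highest correlations over the 12 arrays were those of Camp with S100a8 (0.98), Camp with S100a9 (0.96) and S100a8 with S100a9 (0.95). Ela2 had a median correlation of 0.55 with the other 9 genes. These are descriptions over arrays that share groups and slides. Lcn2 had a median correlation of 0.15 with the other 9 genes, which was 0.90 once group means were removed. Prtn3 had a median of 0.34, which was -0.55 once group means were removed, when it was negative with all 9. Within groups, Lcn2 was thus high on the arrays where the other genes were high, and Prtn3 was not.

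**Figure D3:**
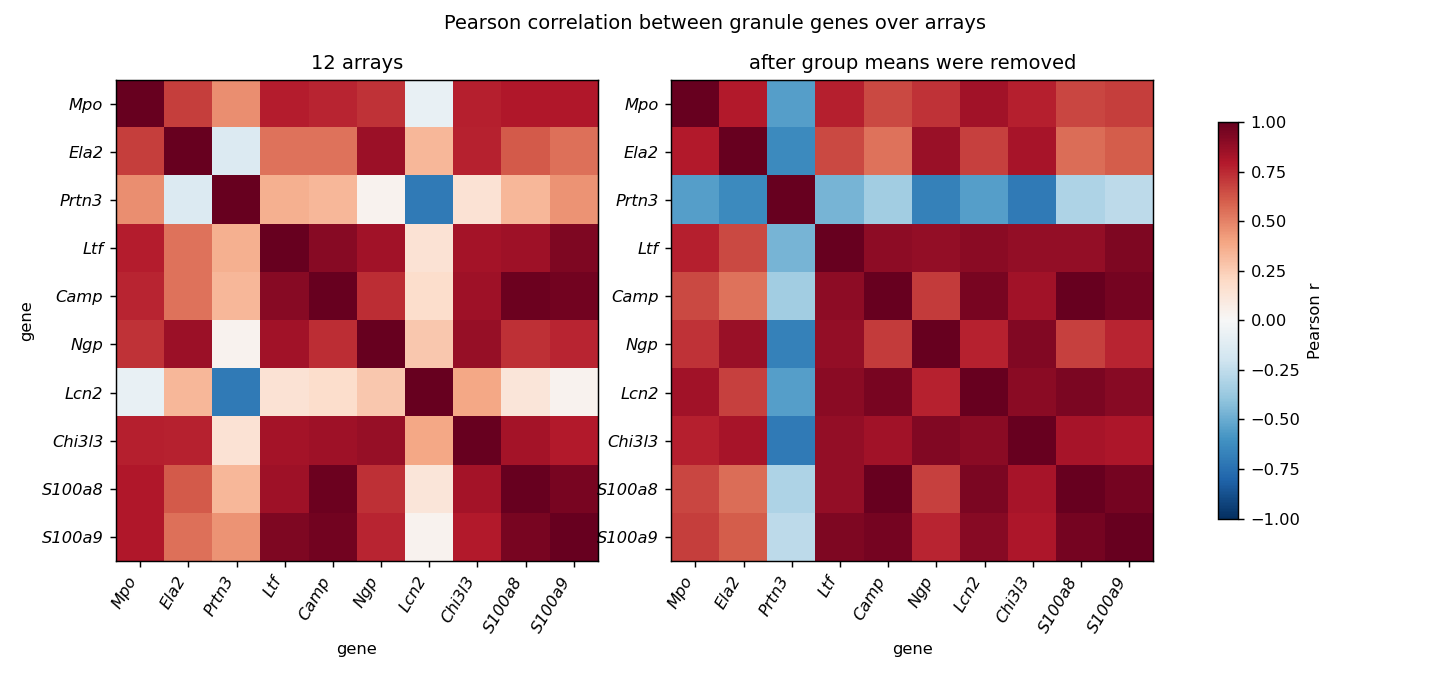
Pearson correlation between the granule genes over the 12 arrays (left) and after the group means were removed (right), coloured from -1 (blue) to 1 (red). On the left Lcn2 and Prtn3 have the lowest median correlations (0.15 and 0.34), and on the right Lcn2 joins the other genes while Prtn3 is negative with all of them.

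Of the 14582 other genes well above background on at least 6 arrays, those most like the mean of the 10 granule genes over the 12 arrays were Stfa2l1 (r = 0.94), Stfa1 (0.93), LOC433016 (0.92), 1100001G20Rik (0.89), Stfa3 (0.89), Myb (0.87), Pou2af1 (0.87), Cldn13 (0.85), Ifitm6 (0.83) and Vpreb3 (0.82). Stfa1, Stfa2l1 and Stfa3 encode stefins, small inhibitors of cysteine proteases, Myb a transcription factor of blood precursors, and Pou2af1 and Vpreb3 proteins of B cells. Stfa1 had log2 signals of 16.54, 15.52 and 10.61 in Schmid wildtype, the same order of arrays as Camp.

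Of 20 other granule proteins measured, 4 were lower in Schmid (Mmp8, Mmp9, Lyzs and Stfa3), 1 was higher (Anxa1) and 15 were not called, with a median of -0.97. Mmp9, gelatinase B, which osteoclasts also make, was 7.03-fold lower (limma, adjusted p = 0.0036). Lyzs, the lysozyme of phagocytes, was 5.26-fold lower (limma, adjusted p = 0.023), and Stfa3 8.79-fold lower with overlapping arrays (limma, adjusted p = 0.034). Mmp8 was well above background on only 2 of the 12 arrays. Ctsg, the cathepsin G of primary granules, had a difference of -0.41 and was not called. Anxa1, annexin A1, was 3.34-fold higher (limma, adjusted p = 0.026). With Schmid wildtype replicate 3 left out, 8 of the 20 were lower and 0 higher. In that fit 8.35% of all probes were called in Schmid. Counts without replicate 1 are not given for this list or those below. In Cog, 0 of the 20 were called with limma.

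Of 6 genes of the phagocyte oxidase, which makes superoxide, Cyba, Ncf4 and Rac2 were lower in Schmid, Ncf4 by 3.86-fold (limma, adjusted p = 0.020), and 0 were called in Cog with limma. Of 14 neutrophil surface receptors, 4 were lower in Schmid, among them Fpr1, Ltb4r1 and Fcgr3, and 0 were called in Cog with limma. Fpr1, a receptor for bacterial formyl peptides, had log2 signals of 9.39, 9.25 and 9.48 in Schmid and 10.51, 11.56 and 11.39 in wildtype, with no overlap. It was 3.43-fold lower (limma, adjusted p = 0.0018). Csf3r, the receptor of the granulocyte growth factor, was well above background on 1 array, and C5ar1 on none. Without Schmid wildtype replicate 3, 3 of the 14 receptors were lower in Schmid. Neutrophils were not counted in the tissue.

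Of 8 granulocyte transcription factors measured, Cebpb was higher and Cebpd, Gfi1 and Irf8 were lower in Schmid. Cebpb was 3.002-fold higher in Schmid (limma, adjusted p = 0.00054) and 2.89-fold higher in Cog (limma, adjusted p = 0.0043), with all arrays of each mutant above its wildtype. The paper, from these data, also reports Cebpb higher in both mutants, there as the partner of Chop in the response to ER stress. Gfi1 was 2.41-fold lower in Schmid (limma, adjusted p = 0.0035). With Schmid wildtype replicate 3 left out, 4 of the 8 were lower. Sfpi1, which encodes PU.1, was well above background on 0 arrays. Of 7 growth factors and chemokines, Cxcl1, a neutrophil attractant, was 3.45-fold higher in Schmid (limma, adjusted p = 0.00091), and Cxcl12, which holds neutrophils in the marrow, was 5.65-fold lower (limma, adjusted p = 0.026). Csf3, Cxcl5 and Il17a were well above background on 0 arrays. Of 5 inhibitors and receptors of the granule proteins, Slc22a17, reported as a receptor of Lcn2, was 2.56-fold lower in Schmid (limma, adjusted p = 0.00070), and neither of the last 2 lists had a call in Cog.

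Markers of other cells that the tissue could hold were measured beside the granule genes. Of 11 erythroid markers, Hbb-b1, Hba-a1 and Alas2 were lower in Schmid, Hbb-b1 by 16.8-fold (limma, adjusted p = 0.0015), and the log2 of their summed signal was 14.79 to 16.16 in Schmid and 17.97 to 19.96 in its wildtype. It was 16.66 to 18.20 in Cog and 17.23 to 18.25 in Cog wildtype, where 0 were called with limma. Leaving out Schmid wildtype replicate 3 raised the number lower in Schmid to 5, as it did for the B lymphocyte list described next. Spna1 and Rhag were well above background on 0 arrays.

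Of 9 B lymphocyte markers, 3 were lower in Schmid, among them Vpreb3 and Ms4a1, with summed signals of 12.92 to 13.13 against 13.56 to 15.60. Of 8 endothelial markers, Cdh5, Kdr, Flt1, Esam1 and Emcn were lower, with sums of 12.86 to 13.65 against 14.70 to 15.66. In Cog 0 of both lists were called with limma, with sums of 13.69 to 13.77 against 13.15 to 13.38 for B cells and 14.31 to 15.09 against 15.28 to 15.50 for endothelial cells. Pecam1 was well above background on 0 arrays.

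Of 11 monocyte and macrophage markers, Csf1r was lower in Schmid (sums 13.73 to 13.92 against 13.98 to 14.84), and Msr1 was well above background on 0 arrays. Of 7 osteoblast markers, Col1a1 was lower in Schmid (19.03 to 19.51 against 19.48 to 20.35), with a median log2 difference over the list of -1.13, and Dmp1 in Cog (19.29 to 19.83 against 19.67 to 20.32). Of 5 T lymphocyte markers, Cd3e was lower in Cog (12.08 to 12.30 against 12.60 to 12.77) and 0 were called in Schmid. With Schmid wildtype replicate 3 left out, 0 of the monocyte and macrophage markers, 2 of the osteoblast markers, 4 of the endothelial markers and 2 of the hypertrophic chondrocyte markers were lower in Schmid. With limma, 0 of 8 osteoclast markers, 0 of 6 megakaryocyte markers, 0 of 6 markers of eosinophils, basophils and mast cells and 0 of 6 markers of all leukocytes were called in either mutant. Of 9 hypertrophic chondrocyte markers, Ihh, Akp2 and Pthr1 were lower in Schmid and Ihh in Cog.

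By array, the erythroid list was also highest on Schmid wildtype replicates 1 and 2 (mean log2 12.67 and 12.59, and 11.25 on replicate 3) and the B lymphocyte list on replicate 1 (11.87, against 10.63 and 10.26). On Cog replicate 2, the highest Cog array for most granule genes, the erythroid mean was 10.92, against 11.98 and 10.90 on Cog replicates 1 and 3. Lists of other cells were highest on Schmid wildtype replicate 1 as well, among them osteoblasts (1.05 above the mean of that list over the 12 arrays), all leukocytes (0.88), hypertrophic chondrocytes (0.76) and endothelial cells (0.73). Cog wildtype replicate 1, lowest for the mean of the granule genes, was at 1.04, 0.20, 0.65 and 0.59 for these lists. The part of these cells in the granule gene differences was not tested.

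**Figure D4:**
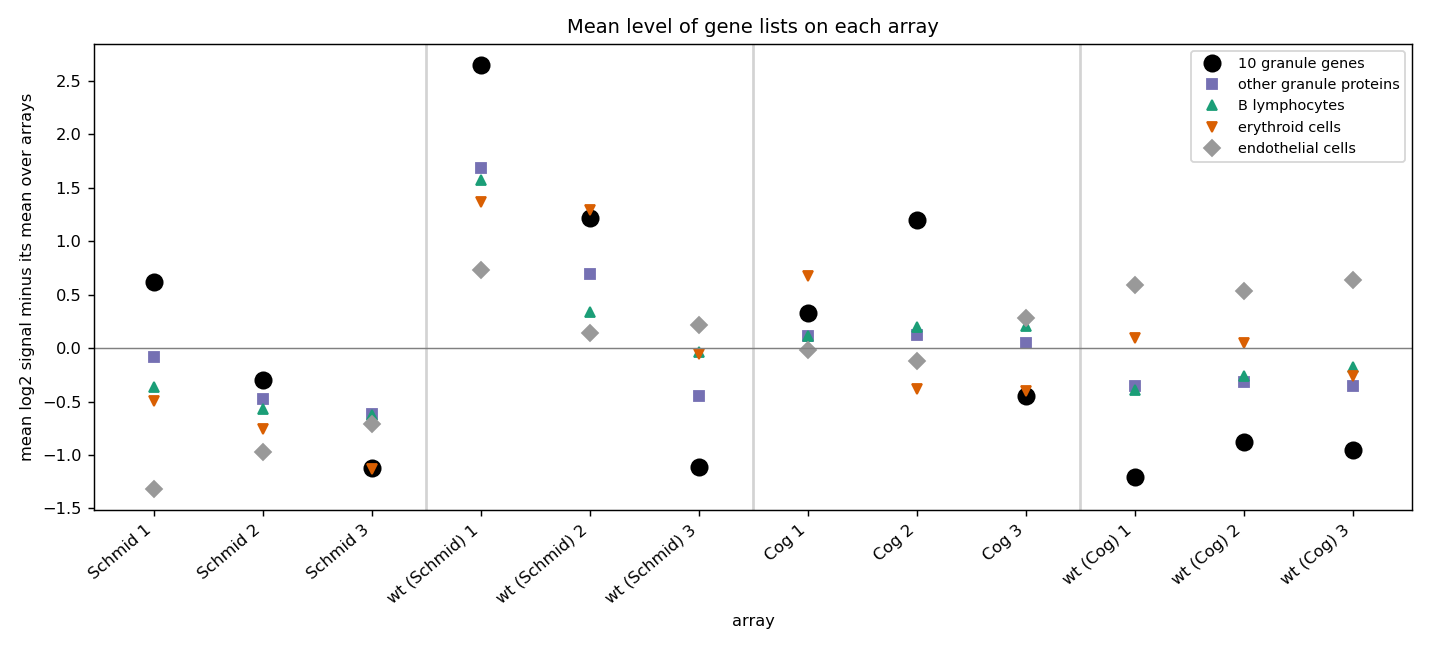
Mean log2 signal of the 10 granule genes and of 4 lists of related or marker genes on each array (brightest probe of each gene), each minus its own mean over the 12 arrays (wt, wildtype). The granule genes are highest on Schmid wildtype replicate 1 (2.65) and lowest on Cog wildtype replicate 1 (-1.20), and the other granule proteins, B lymphocyte and erythroid lists are also highest on Schmid wildtype replicate 1.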

How the data were processed

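Total RNA of 12 microdissected tibial hypertrophic zones was amplified, labelled with Cy3 and hybridized to Agilent whole mouse genome arrays. The authors deposited the scanner output of Agilent Feature Extraction 9.5.3 (version from the submitters' processing notes), with the intensity of 45018 spots and their local background, and a series matrix of deposited log2 values made by normexp correction and quantile normalization. It was used as an alternative, and correlated with the values made here by at least 0.99987 on each array.

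Starting from the intensities, spots marked as outliers were left out, background was corrected with normexp (offset 50), 43379 non-control spots were quantile normalized on the log2 scale, and spots of a probe were averaged. The offset compresses differences of dim probes. Group means were fitted with limma on all 12 arrays (8 residual degrees of freedom) with Benjamini-Hochberg adjustment over 41174 probes. With 3 arrays a group, their number sets the precision. Where no array of a group was well above background, any fold given is a bound ("at least"). It was taken per array against the dimmest signal that passed as well above background (the probe's own where that was greater). For Lcn2 on Cog wildtype replicate 2 that dimmest signal was 6.19, so the probe's own was used. Such a bound is on the group means and does not cover the spread between arrays. The fits were run with limma 3.58.1 in R 4.3.3, and the procedure was tested on simulated data.

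All 10 genes are named, at the brightest probe where there are several. From the related lists, genes that were called may be named, and the 10 most correlated other genes are named. Members of the lists given at background, and Ctsg, were named after their values were seen. Some members of the lists are not reported here by name. The genes and lists were chosen with earlier results of these data known. Promoters were matched by transcript accession for 10 of 10 genes. Cebpe, Ly6g, Serpina1a and Pf4 were not found on the array. Alternatives were other signals and scalings, a filter on dim probes, replicate and slide blocks, array weights, a trend over array rows and leaving out each array.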

Additional observations from a re-analysis of the deposited data

Results flagged for a closer look

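Prtn3 was lower on all 3 Schmid arrays and higher on all 3 Cog arrays than on the wildtype arrays of the same background. The 2 changes differed by -3.90 on the log2 scale (limma, adjusted p = 0.00047), and this difference stayed called under every alternative tried, with an adjusted p of at most 0.0075 (limma). It includes the difference of -0.98 between the wildtype groups.

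Mpo also lay below its wildtype on all 3 Schmid arrays and above it on all 3 Cog arrays. Such separation was common, with 45.4% of all probes not overlapping in the Schmid comparison and 16.4% wholly above wildtype in Cog. The difference between the changes was -2.97 and did not pass the threshold (limma, adjusted p = 0.058). It was called under 7 alternatives and not under 16, with adjusted p between 0.0077 (without Schmid wildtype replicate 3) and 0.89 (limma's treat).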

How the results depend on the processing

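Leaving out each array in turn gave between 2 and 6 genes called in Schmid, 1 in Cog throughout, between 1 and 7 for the difference between the mutants, and between 0 and 1 (Prtn3, without Schmid wildtype replicate 1) between the wildtype groups. The counts of 6 and 7 came without Schmid wildtype replicate 3. Over the same left-out arrays, 6.87 to 15.5% of all probes were called in Schmid and 7.6 to 15% for the difference between the mutants. In Cog the share was 0.736 to 2.92%, and between the wildtype groups 0.18 to 1.97%. Mpo raised the Schmid count from 2 to 3 with both scalings (normexp and processed), the dim-probe filter, the slide block and the row trend removed. In these settings 14.6, 17, 16.6, 12 and 9.75% of all probes were called in Schmid, against 10.5% in the main fit. The slide block cannot separate slide from genotype. In place of 1 gene, the difference between the mutants was called for 3 with normexp values scaled to the 75th percentile, with probes well above background on at least 3 arrays, with slide as a random block and with array weights, where 10.9, 15, 14.4 and 15% of all probes were called. It was called for 2 when the processed signal was scaled to its 75th percentile (7.89% of all probes). The latter setting called 0 in Cog (Prtn3 1.83, limma, adjusted p = 0.067), against 0.877% of all probes. Array weights gave 1 call between the wildtype groups (Prtn3), against 2.03% of all probes. Testing against a 2-fold change with limma's treat left 0 calls in Schmid and 0 in Cog, against 0.61% and 0.034% of all probes. The causes were not tested.

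Directions reversed at genes near background. Ela2 in Cog was 0.064 with the processed signal quantile normalized, 0.90 with it scaled to the 75th percentile, and -0.072 (without Cog replicate 1) to 0.0038 (without Cog replicate 3) over left-out arrays. Leaving out arrays moved Schmid Ela2 from -0.70 to 0.15, Schmid Ngp from -0.86 to 0.12 and the difference between the mutants for Ela2 from -0.65 to 0.19, the highest each time without Schmid wildtype replicate 1. The dimmer Ltf probe in Cog went from -0.029 (without Cog replicate 2) to 0.27. Scaling to the 75th percentile moved the median of all probes to -0.35 (normexp) and -0.40 (processed) in Schmid and to 0.43 (processed) in Cog, and the higher share of calls in Schmid from 55.2% to 42.6% and 42.5%.

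Arrays with the same replicate number correlated, after group means were removed, by 0.19, 0.17 and 0.07 in the Schmid comparison and by -0.12, 0.07 and -0.11 in the Cog comparison. For the 12807 brighter probes, those above background everywhere, these were 0.31, 0.28 and 0.12, and -0.21, 0.15 and -0.20. The labels give no source for a pairing, so the numbers were not taken as pairs, though for Schmid this rests on which probes are read. With the replicate block, 2 genes (Prtn3 and Lcn2) differed between the mutants, against 10.1% of all probes, and no other count of calls changed. For the difference between the mutants, the fit on only the groups compared is the fit on all arrays. Signals near background limit Ela2, Ngp and Lcn2 outside Schmid.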
